A study of Mus musculus with 6 samples.

Results

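The blood vessels of the brain are described here by 34 genes that mark their cells, of 22180 genes measured. The genes were listed by name as 22 endothelial, 7 pericyte and 5 smooth muscle genes, and each was read from the probe set that the platform annotation pairs with that single symbol, the brightest one where a gene had more than 1. All 34 were measured. The samples were hippocampi of 3 Ahr-KO mice, which lack Ahr, the transcription factor that dioxins and other aryl hydrocarbons activate, and of 3 wild-type mice, with 1 array for each mouse. The sources used here do not give the allele, strain, sex or age of the mice.

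Brain endothelial cells are sealed to each other by tight junctions and carry their own set of transporters, which together form the blood-brain barrier. Pericytes sit on the capillary wall and are recruited by endothelial PDGF-B, and smooth muscle cells with a contractile actin and myosin apparatus wrap the arterioles and arteries. Ahr is known in mice for its part in vascular development, since the ductus venosus of the liver fails to close when it is lost. In whole tissue, fewer cells of a type and less RNA per cell cannot be told apart.

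Ahr itself read 6.62, 6.91 and 6.74 log2 in Ahr-KO and 7.68, 7.50 and 7.44 in wild type, without overlap. The sources used here do not say which part of the gene its probe set reads, so this is a limited check of the labels. Array medians ran from 5.79 to 5.85 log2, with upper quartiles of 7.67 to 7.70. Ahr-KO array 1 and wild-type array 2 stood apart in the genes of the choroid plexus, the epithelium next to the hippocampus that makes cerebrospinal fluid. The mean level of 12 of 14 listed choroid plexus genes was 7.40, 5.81 and 5.81 log2 in Ahr-KO and 5.75, 6.95 and 5.86 in wild type. Ttr, the transthyretin this epithelium secretes, read 13.15, 9.06 and 8.64 in Ahr-KO and 8.90, 12.64 and 9.03 in wild type. All 12 measured hippocampal neuron markers lay at or above the median level of the arrays, and so did all 10 astrocyte endfoot markers. Checked by level, 21 of 22 endothelial, 6 of 7 pericyte and 3 of 5 smooth muscle genes averaged at or above the median of 5.80 log2. The exceptions were Ly6c1, Higd1b, Cnn1 and Des.

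None of the 34 vascular genes passed the threshold over all genes, and the largest differences were in Vwf and in the smooth muscle genes Tagln, Des and Cnn1, which read higher in Ahr-KO. At an unadjusted p under 0.05, 6 of the 34 were higher in Ahr-KO and 0 lower. These were the endothelial genes Vwf, Slco1a4 and Abcb1a and the smooth muscle genes Tagln, Cnn1 and Des. Means were higher in Ahr-KO for 27 of the 34 genes, 79.4%, against 50.7% of all genes. However, 20 of the 34 changed sign in at least 1 of the 15 alternatives, which include runs with arrays left out. Of the hippocampal neuron markers 10 of 12 means (83.3%) were also higher, and of the choroid plexus markers 10 of 12. The test was limma's moderated test over all 22180 genes with Benjamini-Hochberg adjustment, in which 0 genes passed an adjusted p of 0.05 (0%) and 1371 had an unadjusted p under 0.05 (6.18%), 3.53% higher and 2.65% lower in Ahr-KO. Among the vascular genes 17.6% were higher at that unadjusted p. The 34 genes were chosen with earlier results of these data known, so these shares describe the listed genes only. The lowest adjusted p of any vascular gene was 0.769. The count of 6 fell to 3 without Ahr-KO array 3. It was also 3 when both choroid plexus arrays were left out, namely Vwf, Tagln and Pglyrp1, of which 2 were among the 6. The part of the choroid plexus in these counts was not tested.

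**Figure D1:**
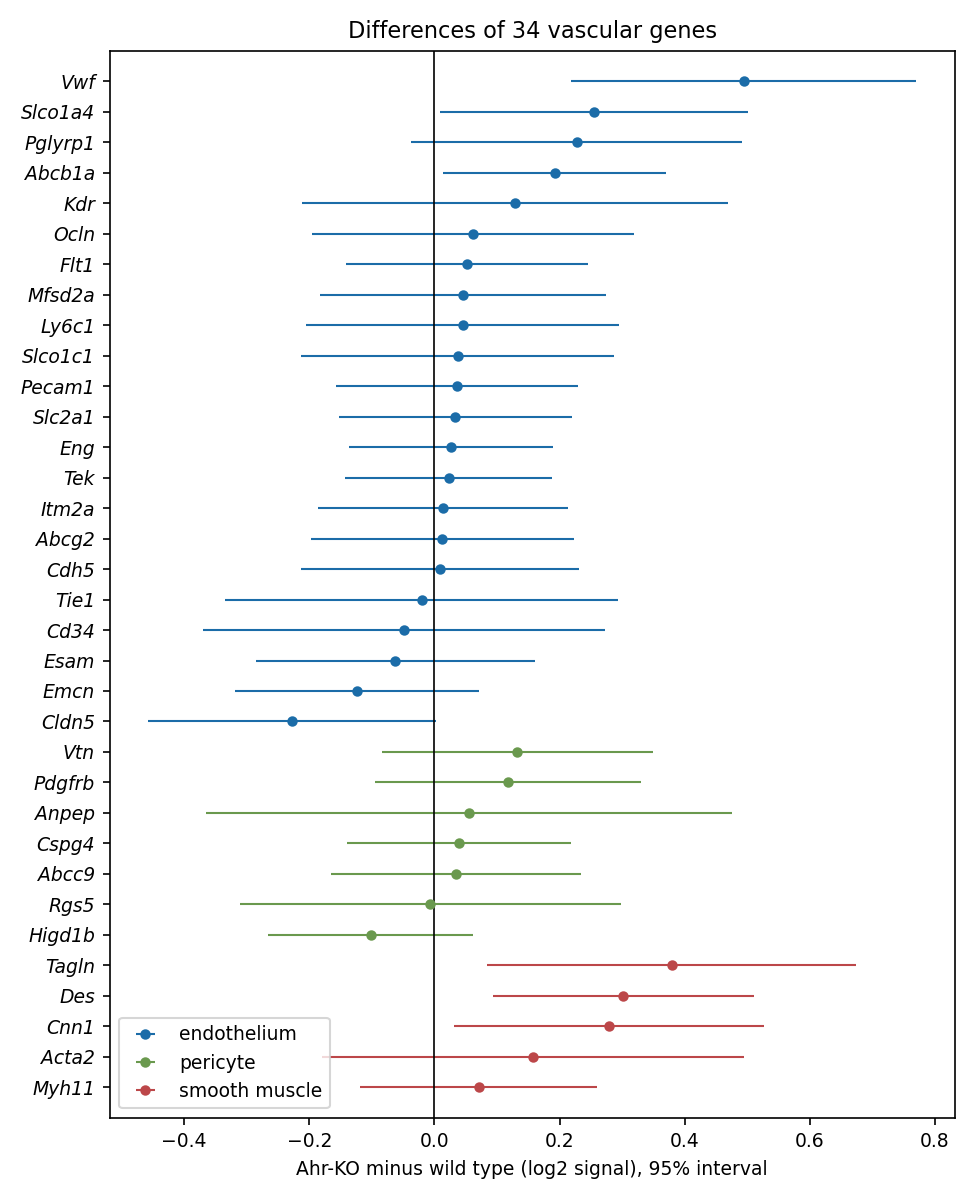
Difference between 3 Ahr-KO and 3 wild-type arrays for each of the 34 genes on the log2 scale, as a point with limma's 95% interval, coloured by cell class. The intervals of Vwf, Slco1a4, Abcb1a, Tagln, Des and Cnn1 lie above 0 and that of Cldn5 reaches just past 0 from below.

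Promoter sequences were looked up for the 6 genes with an unadjusted p under 0.05, to show which of them carry the GCGTG core that the receptor binds together with ARNT. The RefSeq table (GRCm38.p6) gave windows of 250 bases before to 50 bases after a start site for 26 of the 34 genes, among them 4 of the 6. Capitals mark GCGTG and CAGGAA, a core bound by ETS factors, which govern endothelial genes, each on either strand, and a window without capitals holds neither. The windows are Slco1a4 at chr6:141856171-141856470 on the minus strand, Abcb1a at chr5:8566841-8567140, Cnn1 at chr9:22099003-22099302 and Des at chr1:75360042-75360341, the last 3 on the plus strand.
Slco1a4: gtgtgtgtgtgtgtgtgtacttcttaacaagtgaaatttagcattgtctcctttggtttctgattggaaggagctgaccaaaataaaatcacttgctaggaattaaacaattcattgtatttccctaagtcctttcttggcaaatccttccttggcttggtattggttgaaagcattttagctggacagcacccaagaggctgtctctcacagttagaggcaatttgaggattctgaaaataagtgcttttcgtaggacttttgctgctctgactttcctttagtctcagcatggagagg
Abcb1a: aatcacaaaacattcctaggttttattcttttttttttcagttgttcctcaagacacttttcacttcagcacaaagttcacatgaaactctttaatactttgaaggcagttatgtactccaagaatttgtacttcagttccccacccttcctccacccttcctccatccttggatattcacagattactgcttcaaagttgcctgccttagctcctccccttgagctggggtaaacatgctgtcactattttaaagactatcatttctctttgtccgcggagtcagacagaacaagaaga
Cnn1: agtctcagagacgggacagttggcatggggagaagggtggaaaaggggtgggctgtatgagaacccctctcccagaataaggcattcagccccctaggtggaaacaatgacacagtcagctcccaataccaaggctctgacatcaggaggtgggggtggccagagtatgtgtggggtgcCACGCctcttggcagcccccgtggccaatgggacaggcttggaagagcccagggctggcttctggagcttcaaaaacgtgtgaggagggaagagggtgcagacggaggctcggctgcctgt
Des: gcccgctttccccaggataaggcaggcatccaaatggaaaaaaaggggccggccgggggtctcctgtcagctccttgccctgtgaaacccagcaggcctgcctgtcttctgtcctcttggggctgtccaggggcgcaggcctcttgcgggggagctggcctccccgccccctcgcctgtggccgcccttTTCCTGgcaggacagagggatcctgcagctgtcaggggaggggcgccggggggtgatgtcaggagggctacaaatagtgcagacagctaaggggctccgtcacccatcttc
Cnn1 held 1 copy of the receptor core, read as CACGC on the strand shown, and Slco1a4, Abcb1a and Des held 0. Over all 30 windows of the vascular genes 40.0% held GCGTG, against 32.4% of all 32851 windows of that length in the table. The members with a copy were Abcg2, Anpep, Cnn1, Cspg4, Emcn, Flt1, Kdr, Mfsd2a, Ocln, Slc2a1 and Vtn, of which only Cnn1 had an unadjusted p under 0.05. CAGGAA was in 46.7% of the windows of the vascular genes and 30.6% of all windows, and Des held 1 copy. The CArG box, which SRF binds in smooth muscle promoters, was searched only in its strict form, CC(A/T)6GG. It was in 0 of the 30 windows and 1.63% of all windows, so the count says little, and Tagln had no window. A match of letters describes the sequence only, and the cores GCGTG and CAGGAA can overlap by at most 1 base.

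The largest difference was in Vwf, the gene of von Willebrand factor, the glycoprotein that endothelial cells store and release to catch platelets, on chromosome 6 at 125552948 to 125686679 (GRCm38). It read 6.64, 6.81 and 7.07 log2 in Ahr-KO and 6.48, 6.23 and 6.32 in wild type. Every Ahr-KO array was above every wild-type array, and the highest value was on Ahr-KO array 3. The means were 6.84 ± 0.22 in Ahr-KO and 6.34 ± 0.13 in wild type (SD, n = 3 each), a difference of 0.49 ± 0.12 (SE) on the log2 scale or 1.41-fold (limma, unadjusted p = 0.00312, adjusted p = 0.769). Vwf ranked 74 by p among all genes. Its difference lay between 0.38 and 0.59 with each array left out in turn and was 0.54 without the 2 choroid plexus arrays. In brain Vwf is stronger in arteries and veins than in capillaries, which is background and not a result of these arrays.

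Genes of junctions and adhesion between endothelial cells showed no common direction. Cldn5, the claudin that seals brain endothelial tight junctions, read 6.53, 6.89 and 6.67 log2 in Ahr-KO and 6.99, 6.91 and 6.88 in wild type. Ahr-KO arrays 1 and 3 were below all wild-type arrays and array 2 was within them. The difference was -0.23 ± 0.10 (SE), with a 95% interval of -0.46 to 0.0025 (limma, unadjusted p = 0.0520, adjusted p = 0.809), and with each array left out it lay between -0.32, without Ahr-KO array 2 (unadjusted p = 0.00755), and -0.14, without Ahr-KO array 1 (unadjusted p = 0.180). Pecam1, an adhesion molecule of endothelial contacts, read 7.95, 7.90 and 8.02 in Ahr-KO and 7.91, 7.81 and 8.04 in wild type, so that the groups overlapped (0.04 ± 0.08, SE). Cdh5, the VE-cadherin of adherens junctions, read 8.59, 8.54 and 8.47 in Ahr-KO and 8.57, 8.34 and 8.66 in wild type, again overlapping, with an interval of the difference from -0.21 to 0.23. Ocln, the occludin of tight junctions, differed by 0.06 ± 0.11, the adhesion molecule Esam by -0.06 ± 0.10, the sialomucin Emcn by -0.12 ± 0.08 and the sialomucin Cd34 by -0.05 ± 0.14. Cd34 varied over 0.52 log2 among the arrays and was both highest and lowest in Ahr-KO, at 9.17 on array 2 and 8.65 on array 1. Means in Ahr-KO were higher for 3 of these 7 genes and lower for 4, with a median difference of -0.048.

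Endothelial growth factor receptors differed little between the genotypes. The receptors are Kdr and Flt1 for VEGF, Tek for the angiopoietins, its partner Tie1, and Eng, a co-receptor for BMP and TGF-beta ligands. Eng read 8.10, 8.13 and 8.11 log2 in Ahr-KO and 8.14, 8.02 and 8.10 in wild type, the narrowest range of all 34 genes at 0.12 log2. Tek differed by 0.02 (95% interval -0.14 to 0.19), Flt1 by 0.05 (-0.14 to 0.25) and Tie1 by -0.02 (-0.33 to 0.29). Kdr had the widest spread of this group, with 7.77, 7.43 and 7.58 in Ahr-KO and 7.15, 7.54 and 7.71 in wild type. Its low value on wild-type array 1 set the sign of the difference, which was 0.13 ± 0.15 (SE) with all arrays and -0.03 without that one. In this group 0 of 5 genes had an unadjusted p under 0.05 in limma, against 6.18% of all genes, so the count says little.

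Means of all 6 barrier transporters were higher in Ahr-KO, against 50.7% of all genes, although 4 of them changed sign in at least 1 alternative. In 2 of the 6 limma's unadjusted p was under 0.05, against 3.53% of all genes higher at that p. Slco1a4, an organic anion transporter of brain endothelium, read 9.23, 9.003 and 9.30 log2 in Ahr-KO and 8.75, 8.98 and 9.03 in wild type. Ahr-KO array 2 lay inside the range of wild type, so the groups overlapped. The difference was 0.26 ± 0.11 (SE; limma, unadjusted p = 0.0439, adjusted p = 0.806). Abcb1a, which encodes P-glycoprotein, the efflux pump for many drugs, read 8.29, 8.41 and 8.41 in Ahr-KO and 8.11, 8.17 and 8.25 in wild type, without overlap. The difference was 0.19 ± 0.08 (SE), or 1.14-fold (limma, unadjusted p = 0.0373, adjusted p = 0.803).

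Neither call held with each array left out in turn, and fewer arrays also give fewer degrees of freedom. The unadjusted p of Slco1a4 in limma rose above 0.05 without Ahr-KO array 1 (difference 0.23), Ahr-KO array 3 (0.20), wild-type array 1 (0.17) or wild-type array 2 (0.28). That of Abcb1a did so without Ahr-KO array 2 (0.17), Ahr-KO array 3 (0.17), wild-type array 1 (0.16) or wild-type array 2 (0.19). With the arrays centred on their medians, limma gave Abcb1a a difference of 0.18 and an unadjusted p of 0.0629. In the other transporters the intervals spanned 0. Slc2a1, the glucose transporter GLUT1 of the barrier, read 10.07, 10.11 and 10.20 in Ahr-KO and 10.20, 10.05 and 10.02 in wild type, and differed by 0.03 (95% interval -0.15 to 0.22). Slco1c1, a thyroid hormone transporter also made by astrocytes, differed by 0.04 ± 0.11 (SE), the efflux pump Abcg2 by 0.01 ± 0.09 and Mfsd2a, a lipid transporter that restrains transcytosis, by 0.05 ± 0.10. The median difference of the 6 was 0.042, against 0.035 over all 22 endothelial genes.

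The remaining endothelial genes were Pglyrp1, Itm2a and Ly6c1. Pglyrp1, a peptidoglycan recognition protein found in brain endothelium, read 7.58, 7.73 and 7.91 log2 in Ahr-KO and 7.57, 7.65 and 7.33 in wild type. The groups overlapped through Ahr-KO array 1, and the difference was 0.23 ± 0.12 (SE; limma, unadjusted p = 0.0828, adjusted p = 0.817). Without that array it was 0.31 (unadjusted p = 0.0348) and with wild-type array 2 left out 0.30 (0.0485). Leaving out wild-type array 3 gave 0.13 (unadjusted p = 0.281), and leaving out Ahr-KO array 3 gave 0.14 (0.272). Itm2a differed by 0.01 ± 0.09 and Ly6c1 by 0.05 ± 0.11. Ly6c1 belongs to a family of near-identical genes whose probes can cross-hybridise, and its mean of 5.03 log2 was below the median of the arrays. Over all 22 endothelial genes the median difference was 0.035 log2, against 0.0019 over all genes tested, and it was 0.0033 without Ahr-KO array 3. In 17 of the 22 the Ahr-KO mean was the higher. In 2 of the 22, Vwf and Abcb1a, every Ahr-KO array was above every wild-type array, which was so for 6.18% of all genes.

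**Figure D2:**
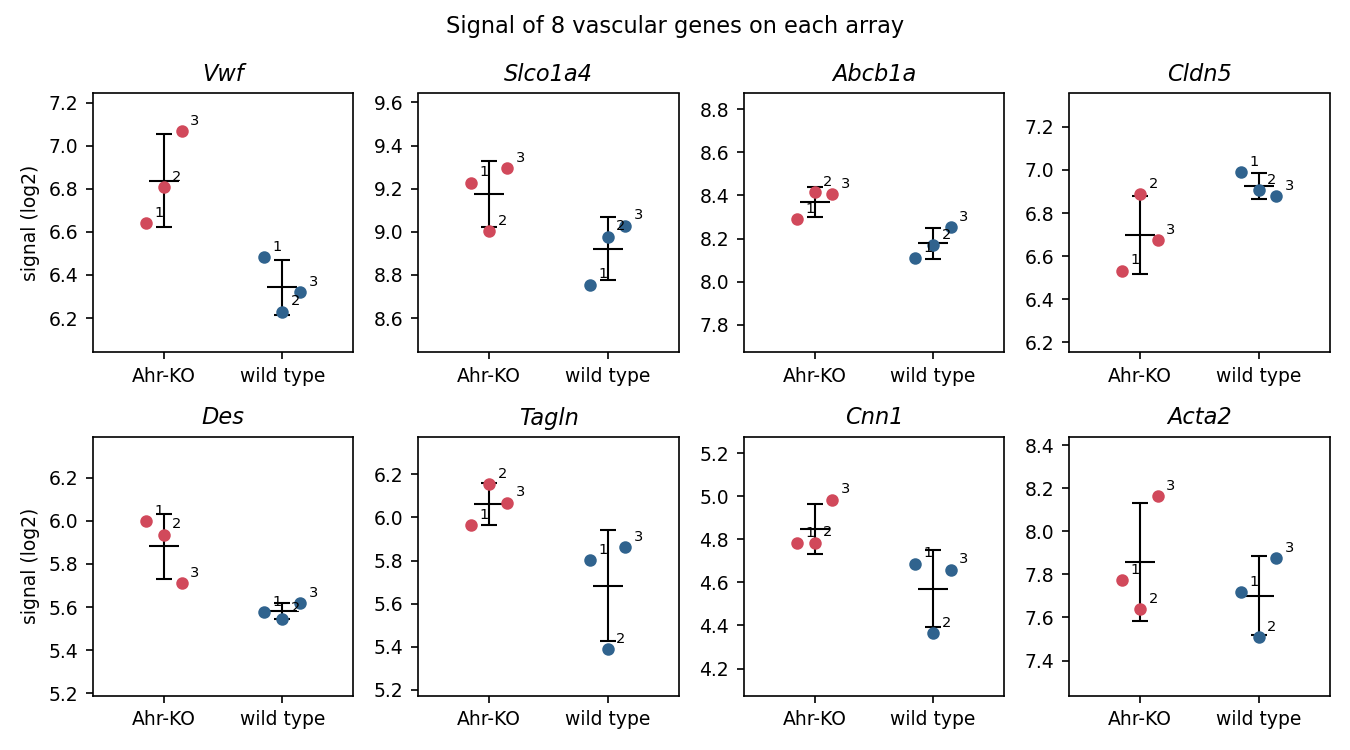
Signal on the log2 scale of 8 vascular genes on each of 3 Ahr-KO and 3 wild-type arrays, numbered as labelled, with the mean and SD in black and the same axis height of 1.2 log2 in every panel. The groups do not overlap for Vwf, Abcb1a, Des, Tagln and Cnn1, and wild-type array 2 is the lowest for the 4 smooth muscle genes shown.

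Pericyte genes differed little between the genotypes. In limma 0 of 7 had an unadjusted p under 0.05, against 6.18% of all genes, so a count of 0 among 7 says little. Pdgfrb, the PDGF-B receptor that pericytes need for recruitment, read 8.53, 8.77 and 8.56 log2 in Ahr-KO and 8.61, 8.43 and 8.46 in wild type. The groups overlapped through wild-type array 1, and the difference was 0.12 (95% interval -0.09 to 0.33). Rgs5, a regulator of G-protein signalling and an abundant pericyte transcript, read 10.54, 10.17 and 10.60 in Ahr-KO and 10.25, 10.50 and 10.57 in wild type. Its groups overlapped, with 1 low array in each genotype and a difference of -0.0065 ± 0.13 (SE). The dimmer second probe set of Rgs5, with a mean of 5.54 log2, differed by 0.26, so the 2 probe sets gave different values for this gene.

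Anpep, the aminopeptidase N of the pericyte surface, had the widest spread of the pericyte genes and the largest standard error of all 34. It read 6.76, 6.78 and 6.61 log2 in Ahr-KO and 6.85, 6.18 and 6.95 in wild type. The low value was on wild-type array 2, and the difference was 0.06 ± 0.18 (SE) with that array and -0.18 without it. Vtn, vitronectin, read 9.57, 9.71 and 9.70 in Ahr-KO and 9.66, 9.37 and 9.55 in wild type, with its lowest value on the same array (0.13 ± 0.09, SE). Cspg4, the NG2 proteoglycan also made by oligodendrocyte precursors, differed by 0.04 ± 0.08 and Abcc9, the regulatory subunit of a potassium channel, by 0.04 ± 0.09.

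Higd1b was the only pericyte gene whose groups did not overlap, at 4.93, 4.90 and 4.91 log2 in Ahr-KO and 4.94, 5.03 and 5.07 in wild type. The difference was small (-0.10, 95% interval -0.27 to 0.06), the gene lay below the median of the arrays, and 5.75% of all genes were lower on every Ahr-KO array. The median difference of the 7 pericyte genes was 0.040 log2.

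Smooth muscle genes stood higher in Ahr-KO than the other classes did. For all 5 the Ahr-KO mean was the higher, 3 without overlap, and the median difference was 0.28 log2, against 0.035 for the endothelial and 0.040 for the pericyte genes. Over all genes 6.18% were higher on every Ahr-KO array, and 7.14% of those below the median of the arrays, where Des and Cnn1 lay. The difference between the classes was not tested. Des, desmin, the intermediate filament of muscle and some pericytes, read 5.9996, 5.94 and 5.71 log2 in Ahr-KO and 5.58, 5.55 and 5.62 in wild type. The wild-type arrays lay close together, and all Ahr-KO arrays were above them. The means were 5.88 ± 0.15 in Ahr-KO and 5.58 ± 0.04 in wild type (SD, n = 3 each), a difference of 0.30 ± 0.09 (SE) or 1.23-fold (limma, unadjusted p = 0.0100, adjusted p = 0.770).

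Tagln, transgelin, an actin-binding protein of smooth muscle, read 5.96, 6.16 and 6.07 log2 in Ahr-KO and 5.80, 5.39 and 5.86 in wild type. The groups did not overlap, and wild-type array 2 was well below the other 5. The means were 6.06 ± 0.10 in Ahr-KO and 5.68 ± 0.26 in wild type (SD, n = 3 each), a difference of 0.38 ± 0.13 (SE) or 1.30-fold (limma, unadjusted p = 0.0177, adjusted p = 0.770). Without wild-type array 2 the difference was 0.23, and without Ahr-KO array 2 it was 0.33 with an unadjusted p of 0.0561. Cnn1, calponin, which damps the actin-activated myosin ATPase, read 4.78, 4.78 and 4.98 in Ahr-KO and 4.69, 4.37 and 4.66 in wild type, without overlap. Its difference was 0.28 ± 0.11 (SE, limma, unadjusted p = 0.0313, adjusted p = 0.797). It was 0.18 without wild-type array 2 and 0.21 without Ahr-KO array 3, and in both cases limma's unadjusted p rose above 0.05 (0.110 and 0.113). Cnn1 and Des lay below the median of the arrays, where 4.98% of all genes were higher in Ahr-KO at an unadjusted p under 0.05, against 2.55% at or above it.

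The 2 defining genes of the contractile apparatus differed less. Acta2, the smooth muscle alpha-actin, read 7.77, 7.64 and 8.16 log2 in Ahr-KO and 7.72, 7.51 and 7.87 in wild type. The ranges overlapped, and the highest value was on Ahr-KO array 3. The difference was 0.16 (95% interval -0.18 to 0.49), and it was 0.0048 without that array. Myh11, the smooth muscle myosin heavy chain, read 7.16, 7.16 and 7.09 in Ahr-KO and 7.05, 6.96 and 7.19 in wild type, with wild-type array 3 the highest of all, and differed by 0.07 (-0.12 to 0.26).

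Wild-type array 2 was the lowest of the 6 arrays for all 5 smooth muscle genes and for 3 of 7 pericyte and 5 of 22 endothelial genes. The mean deviation of the 5 smooth muscle genes from their own means over the 6 arrays was 0.10, 0.10 and 0.16 log2 in Ahr-KO and -0.07, -0.28 and 0.0021 in wild type. The corresponding values of the 7 pericyte genes were 0.01, 0.02 and 0.02 in Ahr-KO and -0.02, -0.10 and 0.06 in wild type, and those of the 22 endothelial genes -0.03, 0.04 and 0.08 in Ahr-KO and -0.06, -0.02 and -0.0020 in wild type. Without wild-type array 2 the median difference of the smooth muscle genes was 0.18, and without both choroid plexus arrays 0.21. Vascular fibroblast markers, genes of the cells around larger vessels and in the meninges, were low on the same array, with deviations of 0.02, -0.04 and -0.0067 in Ahr-KO and 0.06, -0.13 and 0.09 in wild type. All 14 of 14 listed fibroblast markers were measured, and their mean level ran from 7.04 to 7.10 log2 in Ahr-KO and from 6.94 to 7.17 in wild type. Of the 14, 1 was higher and 1 lower at an unadjusted p under 0.05 in limma, against 3.53% and 2.65% of all genes. These were Col1a1, a collagen chain (0.25 ± 0.09, SE), and Ogn, the proteoglycan osteoglycin (-0.60 ± 0.17). Their part in the smooth muscle values was not tested.

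**Figure D3:**
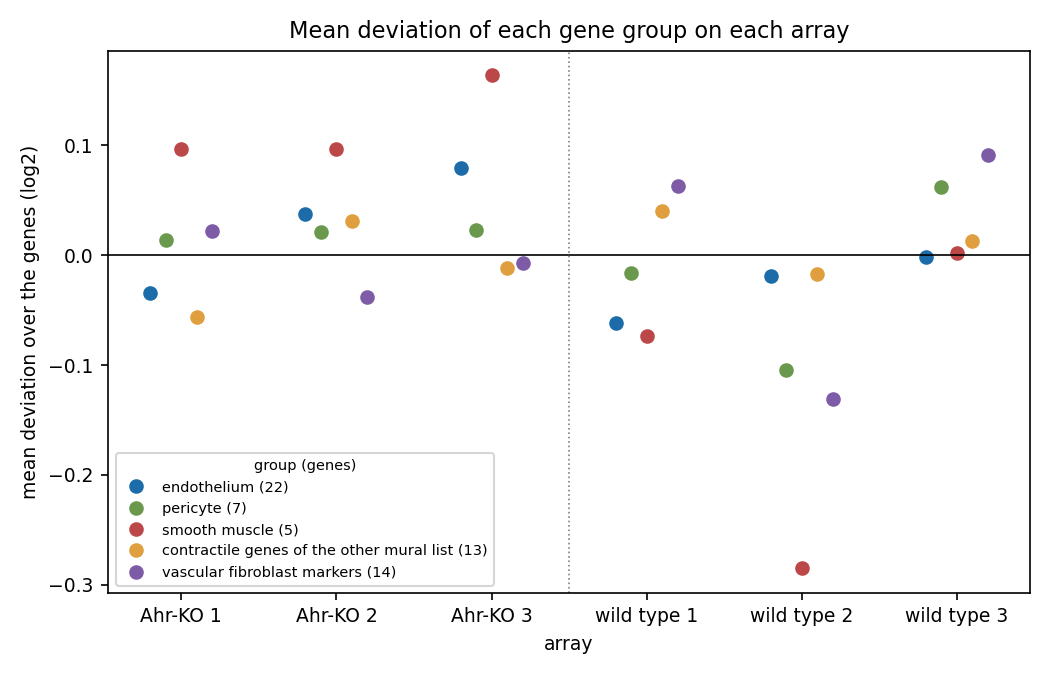
Mean deviation of each gene group on each array on the log2 scale, where a deviation is a gene's signal minus its own mean over the 6 arrays. The 5 smooth muscle genes lie at 0.10 to 0.16 on the Ahr-KO arrays and at -0.28 to 0.0021 on the wild-type arrays. The 13 further genes around the contractile apparatus, drawn after the values were seen, stay between -0.06 and 0.04.

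In a subset of other genes around the contractile apparatus the differences had no common direction. From the list of 29 further mural cell genes, 13 belong to this apparatus, control it or handle its calcium. Among the 13 are Pln (-0.06 ± 0.12, SE) and Casq2 (-0.16 ± 0.12), which handle calcium. The subset was drawn after the values were seen, so its counts and median describe these 13 genes only. Means in Ahr-KO were higher for 6 and lower for 7, and the median difference was -0.020 log2. In limma 0 of the 13 had an unadjusted p under 0.05, against 6.18% of all genes, so the count says little. Myl9, the regulatory myosin light chain, differed by 0.09 ± 0.09 (SE), Cald1, caldesmon, by 0.14 ± 0.10, Tpm2, a tropomyosin, by -0.21 ± 0.12, Lmod1, a leiomodin, by -0.11 ± 0.10 and the myosin kinase Mylk by 0.03 ± 0.13. Myocd, the coactivator that switches on the smooth muscle programme, differed by -0.08 ± 0.10, and its partner Srf by -0.02 ± 0.10.

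In the whole list of 29 the median difference was 0.0015. At an unadjusted p under 0.05 in limma, 2 were higher (6.9%) and 0 lower, against 3.53% and 2.65% of all genes. These were Ndufa4l2, a mitochondrial protein enriched in pericytes, which stood 0.28 ± 0.10 (SE) higher, and the nucleotide-sugar receptor P2ry14 at 0.16 ± 0.07. The third by p was the adhesion molecule Mcam at -0.23 ± 0.10 (-0.14 without Ahr-KO array 1).

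**Figure D4:**
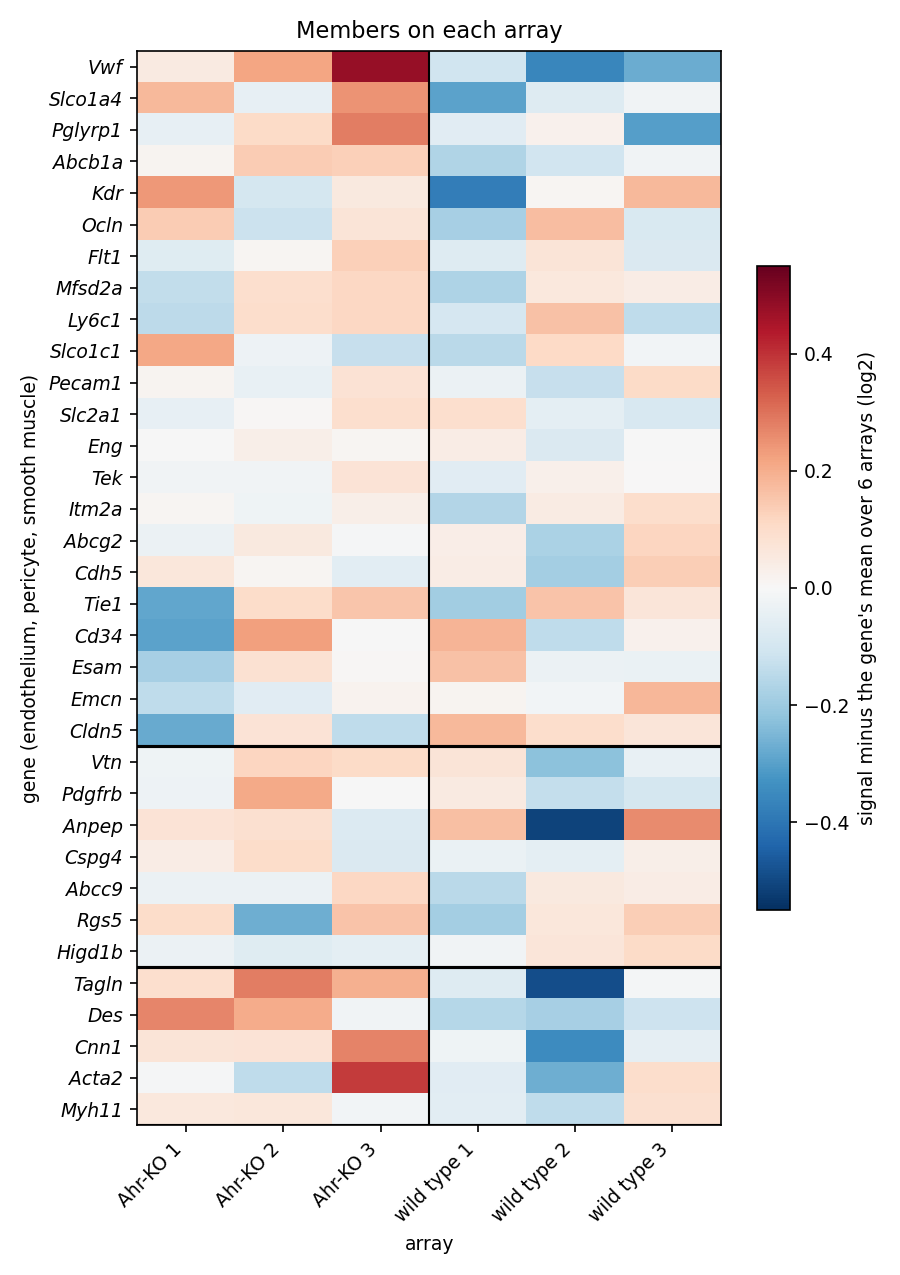
Signal of each of the 34 genes on each array minus the gene's mean over the 6 arrays, on a log2 colour scale from -0.55 to 0.55, with Ahr-KO arrays left of the vertical line and wild-type arrays right of it. Wild-type array 2 is low for all 5 smooth muscle genes, and Ahr-KO array 3 holds the highest value of 10 of the 34 genes.

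Other genes of the same vessels were read from lists that hold none of the 34. These lists too were chosen with earlier results of these data known, so their counts and shares describe the listed genes only. Over all genes 50.7% of means were higher in Ahr-KO, 3.53% were higher and 2.65% lower at an unadjusted p under 0.05, and 6.18% were higher on every Ahr-KO array. In the artery and vein list 19 of 23 means were higher in Ahr-KO, with 2 higher and 0 lower at an unadjusted p under 0.05 and a median difference of 0.087 log2. Edn1, the precursor of the vasoconstrictor endothelin-1, read 6.06, 6.26 and 6.47 log2 in Ahr-KO and 5.80, 5.55 and 5.83 in wild type. The groups did not overlap, and the order of the arrays was similar to that of Vwf, with Ahr-KO array 3 highest and wild-type array 2 lowest in both. The difference was 0.54 ± 0.12 (SE), or 1.45-fold (limma, unadjusted p = 0.00202, adjusted p = 0.769). Icam1, a leukocyte adhesion molecule, stood 0.26 ± 0.11 higher, and 0.15 without Ahr-KO array 3, while Eln, elastin, differed by 0.23 ± 0.10, by 0.32 without Ahr-KO array 3 (unadjusted p = 0.0138) and by 0.15 without Ahr-KO array 1 (0.186).

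Regulators of the barrier and of endothelial identity had more higher than lower means in Ahr-KO. Of 26 measured genes of Wnt signalling and endothelial transcription factors 18 had a higher mean, 4 were higher and 0 lower at an unadjusted p under 0.05, all 4 without overlap, and the median difference was 0.065. The corresponding shares are 69.2% of means higher, 15.4% higher at that p and 15.4% higher on every Ahr-KO array. Over all genes they are 50.7%, 3.53% and 6.18%. This list was also chosen with earlier results of these data known, so its shares describe its own genes only. Lrp5, a Wnt co-receptor, read 7.36, 7.41 and 7.34 log2 in Ahr-KO and 7.11, 7.29 and 6.89 in wild type (0.27 ± 0.10, SE), and its difference was 0.17 without the low wild-type array 3. Epas1, the hypoxia-inducible factor HIF-2 alpha and a bHLH-PAS protein like Ahr, read 9.59, 9.90 and 9.85 in Ahr-KO and 9.44, 9.58 and 9.55 in wild type (0.26 ± 0.10). The forkhead factor Foxf2, which pericytes need, differed by 0.18 ± 0.07 and Klf2, a factor induced by blood flow, by 0.23 ± 0.10. Their adjusted p ran from 0.797 to 0.806 in limma.

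Further transporters of the barrier had a higher mean in 18 of 24 genes, with 2 higher and 1 lower at an unadjusted p under 0.05 and a median difference of 0.054. Slc7a5, the large neutral amino acid transporter LAT1, stood 0.32 ± 0.12 (SE) higher and Slc16a4, a monocarboxylate transporter family member, 0.42 ± 0.18 higher, and the zinc transporter Slc39a10 lower (-0.23 ± 0.10). Growth factors and their other receptors had 0 higher and 1 lower among 28, namely Aplnr, the apelin receptor (-0.18 ± 0.07), with S1pr1, a sphingosine phosphate receptor, at 0.16 ± 0.08 and Angptl4 at 0.17 ± 0.08 (0.10 without wild-type array 2). Junction, caveola and transcytosis genes had 0 higher and 1 lower among 21, namely the junctional adhesion molecule Jam3 (-0.19 ± 0.07), with Cav2, a caveolin, at -0.27 ± 0.13 and the cingulin Cgn at 0.17 ± 0.11. Cav2 was at -0.17 without Ahr-KO array 1 or wild-type array 1, and Cgn was at 0.072 without Ahr-KO array 2. Of the 13 genes of these lists with an unadjusted p under 0.05, Edn1 kept it with each array left out in turn and the other 12 lost it in at least 1 of the 6 runs.

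**Figure D5:**
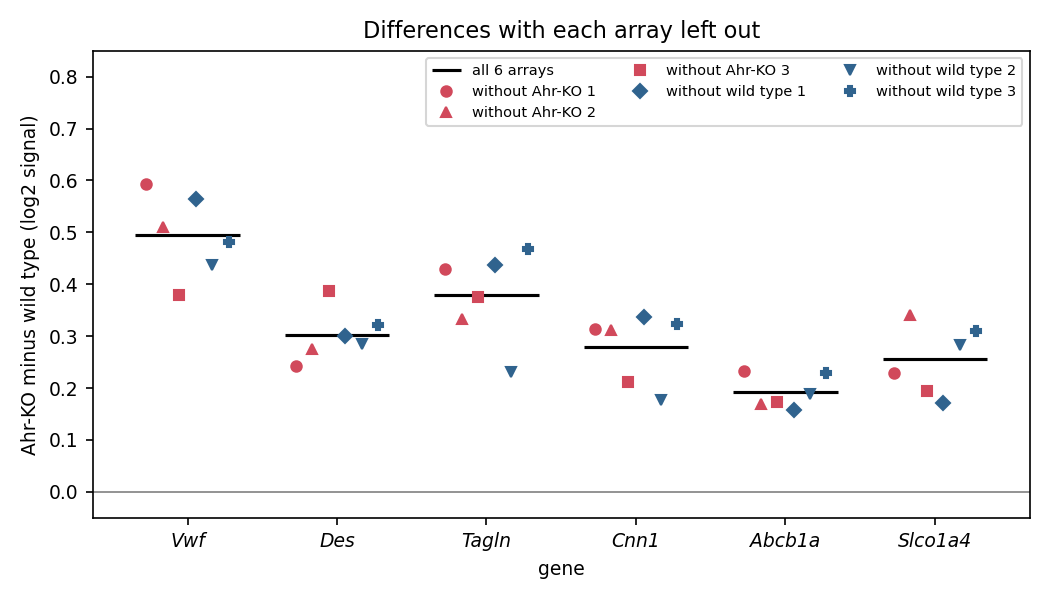
Difference between Ahr-KO and wild type on the log2 scale for the 6 vascular genes with an unadjusted p under 0.05, with all arrays (black line) and with each array left out (red, an Ahr-KO array; blue, a wild-type array). Every point is above 0, and the lowest value of Tagln and of Cnn1 is the one without wild-type array 2.

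Of the 6 vascular genes, Vwf and Des kept an unadjusted p under 0.05 with each array left out, and the other 4 lost it in at least 1 run. Des read 0.23 higher without both choroid plexus arrays, with an unadjusted p of 0.0865. Cells in and around the vessels were read from marker lists. Red blood cell genes, of which 3 of 10 were measured, had a mean level of 4.91 to 5.04 log2 in Ahr-KO and 4.80 to 4.87 in wild type, higher on every Ahr-KO array, and those 3 do not include a globin. Perivascular macrophage genes, 8 of 8 measured, had a mean level of 5.63 to 5.67 in Ahr-KO and 5.65 to 5.78 in wild type. Hippocampal neuron markers, 12 of 12 measured, had a mean level of 9.22 to 9.32 in Ahr-KO and 9.13 to 9.30 in wild type. Astrocyte endfoot genes, 10 of 10 measured, had a mean level of 9.69 to 9.80 in Ahr-KO and 9.73 to 9.78 in wild type. The part of these cells in the vascular values was not tested.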

How the data were processed

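Log2 signals, 1 per probe set and array, were deposited as 1 table of 41345 rows and 6 arrays. RMA and Affymetrix Expression Console are named, without versions, per the submitters' processing notes. RMA normalizes the arrays together, which removes overall shifts and compresses fold changes. The sources used here do not give the authors' probe set annotation, detection calls or scan dates. Rows with 1 symbol (23521) were kept, symbols were updated by Entrez ID to RefSeq (GRCm38.p6; 23328 matched), and the brightest probe set per gene gave 22180 genes. Rows with several symbols (1814) or none (16010) were left out. The test of Ahr-KO against wild type was fitted by limma 3.58.1 (R 4.3.3; lmFit and eBayes, two-sided, no covariate, Benjamini-Hochberg over all genes, threshold 0.05). Differences are Ahr-KO minus wild type. An exact permutation test of 3 against 3 cannot go below 0.1. The number of arrays limits the precision. Each array is of its own mouse, per the labels. The fit was tested on simulated data.

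The 34 genes and the other lists were chosen with earlier results of these data known. Values on every array were set to be given for the genes with an unadjusted p under 0.05 and for Cldn5, Pecam1, Cdh5, Slc2a1, Pdgfrb, Rgs5, Acta2 and Myh11, and the difference for the 3 genes of lowest p in each further vessel list and the mean level of each list of other cell types. Per-array values of other genes, and Klf2, Col1a1, Ogn and the contractile genes, were added after their values were seen. The 15 alternatives covered the variance model, array weights, normalization, a filter on dim genes, averaging of probe sets, a replicate block and left-out arrays. Figures were drawn with matplotlib 3.10.9.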

Additional observations from a re-analysis of the deposited data

How the results depend on the processing

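The count of genes past an adjusted p of 0.05 was 0 in 14 of 15 alternatives and 2 when the prior variance followed intensity, neither of them a vascular gene. Vascular genes higher in Ahr-KO at an unadjusted p under 0.05 numbered 3 to 6 with each array left out. Without Ahr-KO array 1 and wild-type array 2 together they numbered 3, of which 2, Vwf and Tagln, were among the 6 of all arrays. The cause was not tested, and fewer arrays give fewer degrees of freedom. Vascular genes lower at that p numbered 0 to 1 with each array left out, 1 with array weights and 1 among genes at or above the median level, in each case Cldn5. The median difference of the smooth muscle genes was 0.16 log2 among genes at or above the median level, where 3 of 5 were tested, and 0.18 to 0.32 with each array left out. That of the endothelial genes lay between 0.0033 (without Ahr-KO array 3) and 0.051 and that of the pericyte genes between 0.013 and 0.090 over the 15 alternatives. The 6 vascular genes with an unadjusted p under 0.05 kept their sign in every alternative in which they were tested. Vwf kept an unadjusted p under 0.05 in 15 of 15, and the lowest adjusted p of a vascular gene ran from 0.539 to 0.972. The labels do not say whether the replicate numbers pair mice. Same-numbered arrays correlated at -0.15, -0.22 and 0.05 in their deviations across genes. The highest value was 0.23, for Ahr-KO array 2 and wild-type array 1. With 3 arrays per genotype, such correlations cannot decide whether mice were paired. With the replicate block, 0 genes passed the adjusted threshold, 4 vascular genes were higher and 0 lower, and the median differences of the 3 classes were those without it. No probe set has a detection call, so the dim genes Cnn1, Des, Higd1b and Ly6c1 have no stated limit of detection.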
